A study of Drosophila melanogaster with 6 samples.

Results

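In the flight muscles of developing Drosophila melanogaster, 329 Dp peaks each held 2 or more separate Rbf peaks. They were chosen by overlap of the deposited peak lists: a Dp peak of any width entered when at least 2 Rbf peaks shared at least 1 bp with it. The 329 made up 6.39% of the 5148 Dp peaks on the chromosomes other than M, the mitochondrial genome, which was left out. They made up 13.9% of the 2360 Dp peaks that held any Rbf peak (exact 95% interval 12.6 to 15.4). The remaining Dp peaks comprised 2031 with 1 Rbf peak and 2788 with none. Because peak positions in both lists decided membership, the number held, the widths and the scores below are descriptions and were not tested.

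Rbf belongs to the retinoblastoma proteins, best known for holding back the cell cycle by binding E2F transcription factors at their target genes. Dp is the partner with which E2F proteins form the dimer that contacts DNA, so Rbf reaches many of its sites through E2F and Dp. A peak is a stretch of the genome enriched in DNA brought down with an antibody in chromatin immunoprecipitation followed by sequencing (ChIP-seq). A broad peak of the DNA-binding partner that contains several peaks of the pocket protein can therefore be described by how many there are, how far apart they lie and where they sit.

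The study sampled flight muscles of pharate animals, pupae close to emergence, about 96 h after pupa formation. All 6 samples shared the transgene P{UAS-mCherry-RNAi}attP2, an RNA interference construct against a fluorescent protein foreign to flies, and a Mef2 GAL4 driver, which turns it on in muscle, while the series title calls the animals wild type. There were 2 Rbf ChIP samples (mouse antibodies DX3 and DX5), 2 Dp ChIP samples (rabbit antibody 212) and 2 inputs without antibody. Growth was at 25 °C according to the protocol, although 5 °C is written in the stage given for the Dp samples. Each antibody had 1 peak list, and how its samples entered that list is not stated, so no value per sample, replicate spread or read depth was at hand. Intervals below are exact at the 95% level and reflect only the number of peaks counted (counting error), and neighbouring peaks are not independent. Coordinates are 1-based in build BDGP5. No gene is named, because the gene table at hand belongs to another release of the genome, and no sequence of BDGP5 was used.

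Most of these Dp peaks held a pair of Rbf peaks, and a few held many. There were 227 with 2, 65 with 3, 25 with 4, 8 with 5 and 4 with 6. Together they contained 813 Rbf peaks, 23.4% of the 3470 in the Rbf list, in 17.7% of the length covered by Dp. Of the 813, 803 (98.8%, 97.7 to 99.4) lay wholly inside their Dp peak and 10 crossed its edge. The least contained of those 10 still had 55.6% of its length inside, and the smallest overlap was 120 bp, so no Dp peak entered the set through a marginal overlap. On the other side of the rule, 5 Dp peaks with 1 Rbf peak had a second one at most 50 bp beyond their edge, and 46 (2.26%) had one at most 200 bp beyond it. The median distance from a Dp peak with 1 Rbf peak to the next Rbf peak was 8934 bp (quartiles 3104 and 22053).

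Dp peaks with several Rbf peaks were broad. Their median width was 3840 bp (3451 to 4372), against 1021 bp (1004 to 1036) for Dp peaks with 1 Rbf peak and 671 bp (658 to 686) for those with none. A broad peak has more room for Rbf peaks, so width and number held are tied together by the rule. The median width went from 2616 bp in Dp peaks with 2 Rbf peaks to 4586 bp with 3, 6635 bp with 4, 6838.5 bp with 5 and 7028 bp with 6. The number per kb of Dp peak changed less, with medians of 0.765, 0.654, 0.603, 0.734 and 0.863 in the same order. In all, 157 of the 329 (47.7%, 42.2 to 53.3) were at least 4 kb wide, and 54 (16.4%) were under 1500 bp. Among Dp peaks that held any Rbf peak, the share with several was 3.04% below 1500 bp (2.29 to 3.94), 30.0% from 1500 to under 3000 bp, 63.2% from 3000 to under 4000 bp, 54.5% from 4000 to under 6000 bp and 72.5% at 6000 bp and over (63.1 to 80.6). Many broad Dp peaks held no Rbf peak or a single one: 236 of the 488 Dp peaks of at least 4 kb (48.4%) held none and 95 (19.5%) held 1.

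**Figure D1:**
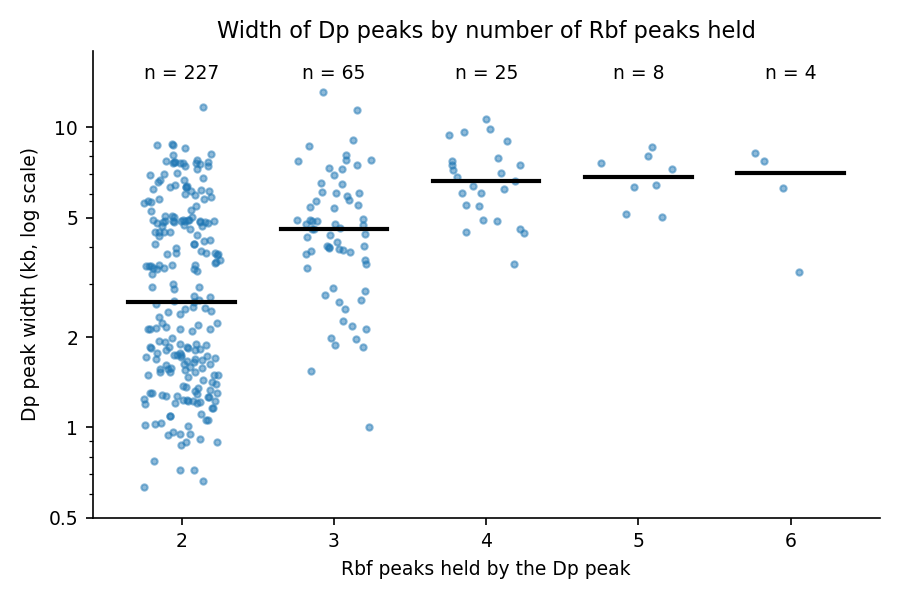
Width of each Dp peak (kb, log scale) against the number of Rbf peaks it held, with 1 point per Dp peak, sideways scatter for legibility and a black line at the median. The 227 Dp peaks with a pair spread from 633 to 11726 bp, and all 37 with 4 or more were at least 3298 bp wide.

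The narrowest and the widest of the set show this range. The narrowest was 633 bp, on 2L at 20208457 to 20209089, and its Rbf peaks of 201 and 279 bp stood 29 bp apart with scores of 50.7 and 51.35. The next narrowest were a pair of Dp peaks on X, of 661 bp at 9901111 to 9901771 and of 719 bp at 9128961 to 9129679, with gaps of 5 and 51 bp between their Rbf peaks. The widest, 13067 bp on 2R at 1267220 to 1280286, held 3 Rbf peaks that covered 17.8% of it. Next came 11726 bp on 2L at 21430135 to 21441860, where 2 Rbf peaks separated by 6 bp covered 92.5%. The widest 3 ended with 11421 bp on 3L at 24454831 to 24466251, where 3 Rbf peaks covered 75.7%. Great breadth thus went with sparse Rbf peaks in the widest and almost continuous cover in the next.

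Neighbouring Rbf peaks inside a Dp peak were usually very close to each other. The 484 gaps, measured from the end of an Rbf peak to the start of the next, had a median of 126 bp (103 to 167), with quartiles of 38 and 478.5 bp and extremes of 1 and 5502 bp. Of these gaps, 147 (30.4%) were at most 50 bp, 281 (58.1%, 53.5 to 62.5) at most 200 bp and 439 (90.7%) at most 1000 bp. Between midpoints the median distance was 1259.75 bp (quartiles 744.25 and 2018.62). Over the whole Rbf list the median gap between neighbours was 13630.5 bp. A gap inside a Dp peak cannot exceed its width, at most 13067 bp here, so the rule itself makes these gaps shorter. Of the 370 neighbouring Rbf peaks in the list with at most 200 bp between them, 281 (75.9%, 71.3 to 80.2) lay in the same Dp peak. That share was 56.2% for distances over 200 and up to 1000 bp, and 8.21% for those over 1000 and up to 5000 bp.

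A limit of 200 bp was set to describe spacing, with gaps up to it called close and longer ones wide. Gaps lay on both sides of it: 13.8% were over 100 and up to 200 bp, and 10.7% over 200 and up to 400 bp. In 166 Dp peaks (50.5%, 44.9 to 56.0) no gap exceeded 200 bp, in 113 (34.3%, 29.2 to 39.8) every gap did, and 50 with 3 or more Rbf peaks (15.2%) had gaps of both kinds. Joining Rbf peaks at most 200 bp apart would leave 163 Dp peaks with several, so the size of the set depends on how far apart Rbf peaks must be to count separately. Dp peaks with only close gaps had a median width of 2505 bp (1829 to 3769) and 80.1% of their length under Rbf peaks (75.6 to 84.0). Those with only wide gaps had a median width of 3840 bp (3376 to 4704) and 53.5% under Rbf peaks (47.4 to 60.8), and a wider gap lowers that share by itself. Close spacing prevailed in narrow Dp peaks: 47 of 54 under 1500 bp (87.0%) had no gap over 200 bp, against 27 of 79 (34.2%) of at least 6000 bp. The share was 51.2% from 1500 to under 3000 bp, 38.9% from 3000 to under 4000 bp and 46.2% from 4000 to under 6000 bp. Broad Dp peaks have room for wider gaps and also hold more gaps. No gap exceeded 200 bp in 59.0% of pairs and in 31.4% of Dp peaks with 3 or more Rbf peaks.

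**Figure D2:**
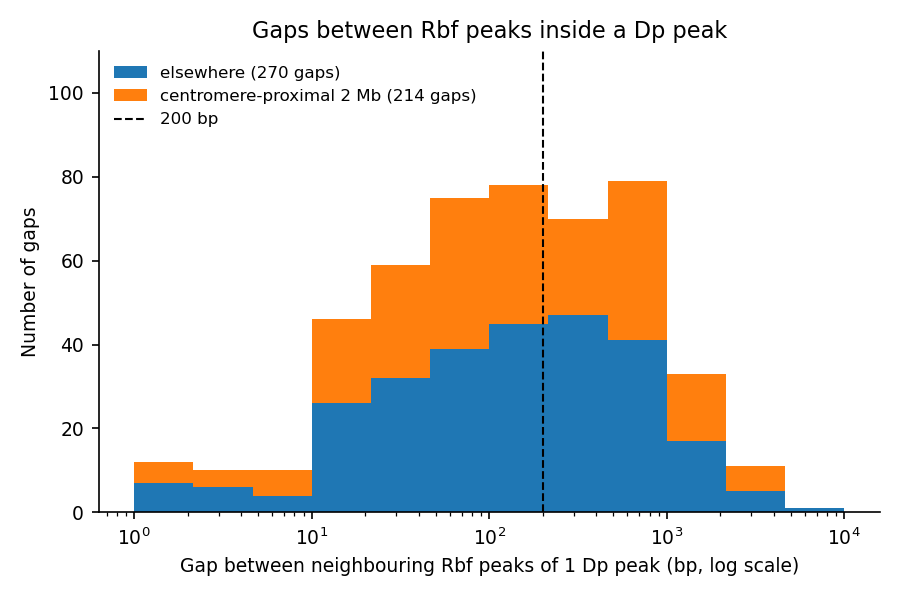
Number of gaps between neighbouring Rbf peaks of the same Dp peak by gap length (bp, log scale), stacked by whether the Dp peak lay in the centromere-proximal 2 Mb of an arm or elsewhere. The dashed line marks 200 bp, and 281 of the 484 gaps lie at or below it.

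Single Dp peaks illustrate both ends of the spacing. A gap of 1 bp occurred in 9 Dp peaks, of which the first by position were on 2L at 17273161 to 17278095, on 2L at 21545910 to 21554592 and on 2R at 1430714 to 1434893. In the last of these, 2 Rbf peaks covered 96.3% of a 4180 bp Dp peak. The largest share under Rbf peaks, 99.5%, was on 2L at 22407589 to 22412616. Its Rbf peaks of 1256 and 3745 bp stood 3 bp apart, with scores of 846.74 and 3100. Near-complete cover was also found on 2R at 529359 to 537014 (98.3%) and on 3L at 5451147 to 5459862 (97.6%), each with 2 Rbf peaks. At the other extreme, a 6793 bp Dp peak on 3L at 925231 to 932023 had its 2 Rbf peaks, of 462 and 216 bp, 5502 bp apart and only 9.98% of its length under them. Gaps of 3489 and 3359 bp followed, on 3L at 5292194 to 5299803 and at 24034847 to 24044306. Low cover was further seen on 3L at 24264822 to 24272987 (12.7%) and on 2R at 9615612 to 9623373 (13.6%).

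Only 12 Dp peaks held 5 or 6 Rbf peaks, and they lay on 2L (2), 3L (4), 3R (1), chromosome 4 (2) and X (3). With 6 were the Dp peaks on 3L at 24345842 to 24353594, on 3R at 27898575 to 27904877, and on X at 12688759 to 12692056 and at 21642434 to 21650636. Arm 2R had none of the 12, and the most held there was 4, in 5 Dp peaks, of which the one with the highest Dp score lay at 3084026 to 3088887. The 12 differed in how their Rbf peaks were laid out. On X at 12688759, 6 narrow Rbf peaks of 217 to 335 bp were packed into 3298 bp, with gaps of 53 to 454 bp. On 3L at 24345842, gaps ran from 29 to 1249 bp and Rbf widths from 300 to 1697 bp. On chromosome 4 at 4792 to 13389, 5 Rbf peaks with gaps of 11 to 296 bp covered 92.1% of 8598 bp, and the middle one had the highest score, 459.93. The other with 5 on that chromosome, at 809462 to 817516, had gaps of 27 to 916 bp. The remaining Dp peaks with 5 were on 2L at 6991410 to 6998668 and at 22934385 to 22939541, on 3L at 2063428 to 2069845, at 23158960 to 23166554 and at 24125311 to 24131630, and on X at 13940692 to 13945730. Of the Rbf scores in these 12 Dp peaks the highest was 582.67, on 3L at 24125311.

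**Figure D3:**
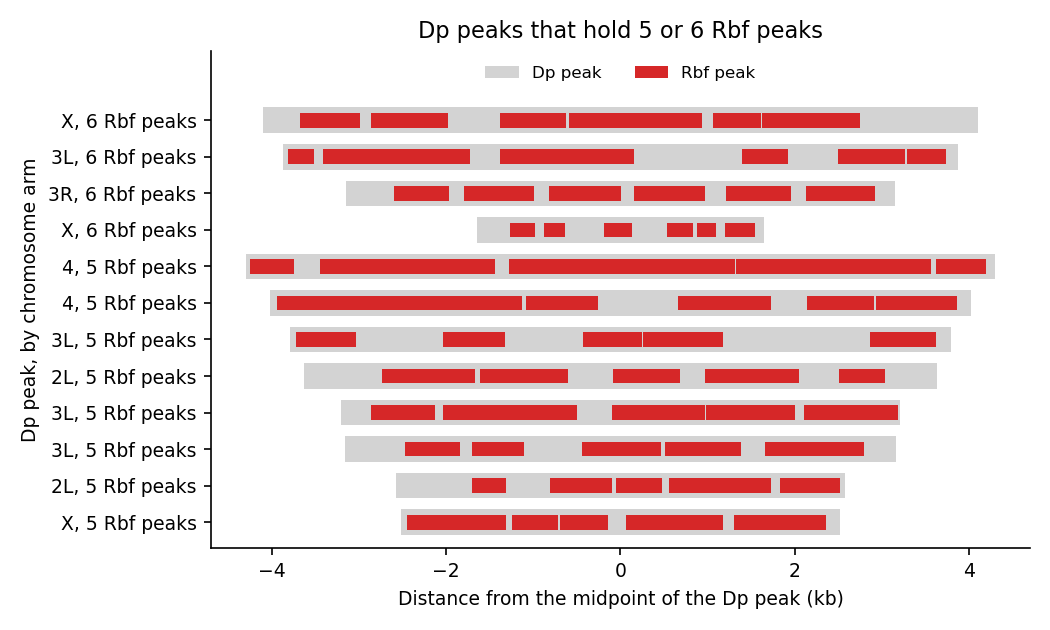
The 12 Dp peaks with 5 or 6 Rbf peaks, each drawn to scale as a grey bar with its Rbf peaks in red, against distance from the Dp midpoint (kb). Rows are ordered by number held and then width, and Rbf peaks with gaps of a few bp appear joined.

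Some of the larger groups were evenly spaced. In the Dp peak on 3R at 27898575 to 27904877, whose end is the last listed position on that arm, the distances between successive Rbf midpoints were 890, 983.5, 975, 1018.5 and 949 bp. Its 6 Rbf peaks were 639 to 828 bp wide with scores of 83.08 to 122.87, so their widths and scores also lay in a narrow range. The coefficient of variation (CV, the SD over the mean) of these 5 distances was 4.97%. Across the 37 Dp peaks with 4 or more Rbf peaks the CV had a median of 23.9% and ran from 2.82% to 96.1%. Lower values than on 3R at 27898575 belonged to Dp peaks with 4 Rbf peaks, where 3 distances enter: 2.82% on 2R at 301944 to 312594, 3.65% on 3R at 10006558 to 10011462 and 4.15% on 2R at 2271534 to 2280551. On 2R at 301944 the midpoints were evenly placed although the Rbf peaks themselves ranged from 804 to 3327 bp in width. The CV was added after the data were seen, and Dp peaks picked for a low CV are extremes of 37.

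Rbf peaks filled most of the Dp peak and left short flanks. The median share of a Dp peak's length under Rbf peaks was 69.5% (66.1 to 72.2), and the stretch from the first Rbf start to the last Rbf end took up 83.9% (81.1 to 86.0). The shorter flank of each Dp peak had a median of 92 bp (82 to 102) and the longer flank 298 bp (242 to 359). The longer flank was at the low-coordinate end in 167 of 329 (50.8%, 45.2 to 56.3), an interval that includes an even split between the ends. A Dp peak with 1 Rbf peak had a median of 52.8% of its length under it (51.9 to 53.6). Among Dp peaks of at least 4 kb the medians were 72.2% with several (67.6 to 79.3) and 16.2% with 1 (13.5 to 45.6), and the latter had quartiles of 9.85% and 93.9%. More Rbf peaks cover more length, so these shares were not tested.

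Within the Dp peak, the first and second Rbf peaks of a pair had median positions to either side of the centre in every class of width. Sorting a pair by coordinate puts its first peak below its second by construction, so this split was not tested. Over all members, cover was more even along broad Dp peaks, which also held more Rbf peaks, so width and number held were not separated. From one end to the other, the 5 equal parts of the Dp peak held 16.4%, 25.1%, 17.2%, 24.6% and 16.7% of the 813 Rbf midpoints. The middle 33.3% of the width held 30.8% (27.6 to 34.0), against 84.7% (83.1 to 86.3) of Rbf midpoints in Dp peaks with 1 Rbf peak. Peaks that lie side by side cannot all be centred, so some of this contrast follows from holding several. In 302 of 329 (91.8%) there were Rbf midpoints on both sides of the Dp midpoint, and in 232 (70.5%, 65.3 to 75.4) an Rbf peak covered the Dp midpoint itself. For pairs the median positions, as a percentage of Dp width, were 29.4 and 72.4 in Dp peaks under 1500 bp, 27.0 and 73.8 from 1500 to under 4000 bp and 26.8 and 73.4 at 4 kb and over. At 49% of the Dp width, next to the centre, an Rbf peak was present in 75.9% of the Dp peaks under 1500 bp, 57.6% of those from 1500 to under 4000 bp and 78.3% of those of at least 4 kb. At 25% of the width the shares were 92.6%, 80.5% and 73.2%. Below 1500 bp the lowest inner share, 68.5%, was off centre, at 39% and 41% of the width. Between the flanking maxima the shares were thus lower in both narrower classes. In the broadest class the share was 73.2% at 51% of the width, between 78.3% at 49% and 77.1% at 53%. The share at 25% of the width was also 73.2%, so this single position is not read as a central dip.

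**Figure D4:**
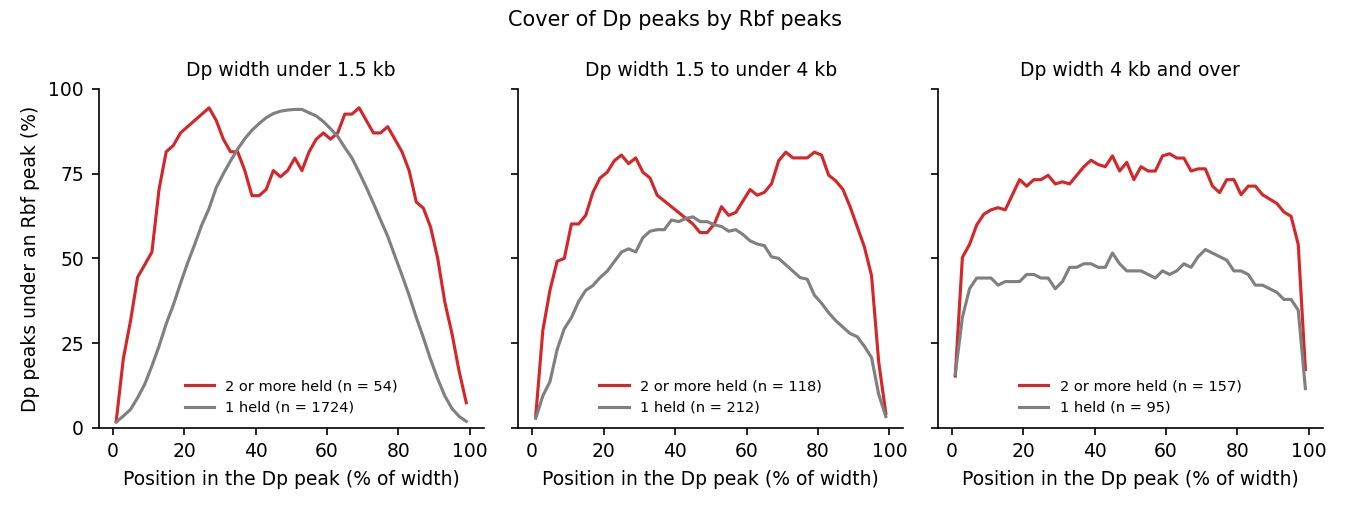
Percentage of Dp peaks that lie under an Rbf peak at each of 50 positions along the Dp peak (% of its width), for Dp peaks with 2 or more Rbf peaks (red) and with 1 (grey), in 3 classes of Dp width. Red curves dip between their maxima below 4 kb, to 68.5% at positions 39 and 41 in the narrowest class and 57.6% at 49 in the middle class. The grey curves of these classes are highest near the centre. At 4 kb and over the red curve has no clear central dip, and its 73.2% at position 51 equals the share at position 25.

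Rbf peaks of the same Dp peak usually differed in score. The score is the authors' own value per peak and ranks peaks only within its list. In the 227 pairs the higher Rbf score had a median of 182.16 (146 to 219.9) and the lower 78.14 (72.3 to 92.3), with a median difference of 62.9 (49.9 to 86.7) and extremes of 0.54 and 2327.35. The Rbf peak of higher score was also the wider one in 178 pairs (78.4%, 72.5 to 83.6). It lay on the low-coordinate side in 105 (46.3%, 39.6 to 53.0) and nearer the Dp midpoint in 162 (71.4%, 65.0 to 77.2). Where the higher score belonged to the wider Rbf peak, that peak was nearer the centre in 146 of 178 pairs (82.0%), and where it belonged to the narrower, in 16 of 49 (32.7%). Position went with width, and when a pair fills a Dp peak, the wider peak's midpoint is nearer the centre by geometry. With 3 Rbf peaks the highest score was at one of the ends in 49 of 65 (75.4%, 63.1 to 85.2), and with 4 or more in 15 of 37 (40.5%, 24.8 to 57.9). The ends are 66.7% of the places with 3 Rbf peaks and on average 46.0% with 4 or more, and both intervals include these values.

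Most of the Rbf peaks in the set had low scores, while the Dp peaks around them scored high in their list. The median Rbf score was 106.04 (97.2 to 111) for the 813, against 208.64 (197 to 224) for Rbf peaks alone in a Dp peak and 147.94 for the list. Taking only the highest Rbf score of each Dp peak gave a median of 182.84 (160 to 204). In 138 of the 329 (41.9%) no Rbf peak exceeded the list median, and in 55 (16.7%) every one did. The Dp score had a median of 1262.01 (1059 to 1478) and exceeded the list median of 353.955 in 267 (81.2%, 76.5 to 85.2). Dp peaks with 1 Rbf peak had a median of 1135.48 (1096 to 1177). Among Dp peaks of at least 4 kb the medians were 1694.97 with several Rbf peaks (1464 to 1983), 1388.66 with 1 (1117 to 1663) and 905.24 with none (847 to 945). Scores of 3100, at which many Dp peaks are tied, belonged to 24 of the 329 and to 75 of all 5148 Dp peaks. The highest Dp scores of the set were 3133.8 on 3L at 5107840 to 5117730 and 3133.22 on 3R at 22383965 to 22391447, each with 4 Rbf peaks. The latter had gaps of at most 174 bp, and Rbf peaks over 92.1% of its length. The first of the set tied at 3100, on 2L at 1502507 to 1505013, held Rbf peaks of 510 and 657 bp with 896 bp between them, near the ends of a 2507 bp Dp peak.

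Many of these Dp peaks lay close to centromeres. There were 149 in the proximal stretches, the 2 Mb at the centromere end of the listed peaks on 2L, 2R, 3L, 3R and X. They were 45.3% of the set (39.8 to 50.8), compared with 14.2% (12.7 to 15.8) of Dp peaks with 1 Rbf peak and 13.0% (11.8 to 14.3) of those with none. Of proximal Dp peaks that held any Rbf peak, 34.1% held several (29.7 to 38.8), against 9.36% elsewhere (8.10 to 10.8). The same order was seen under 4 kb, at 22.8% (18.4 to 27.6) against 5.41% (4.41 to 6.57). At 4 kb and over it was 70.9% (61.1 to 79.4) against 56.4% (48.0 to 64.5), where the intervals overlap. Over all arms the share with several ran from 3.04% under 1500 bp to 63.2% from 3000 to under 4000 bp. Widths were not matched within these classes, so width and position on the arm were not separated. By arm the proximal share was 32.2% on 2L, 37.5% on 2R, 38.1% on 3L and 36.4% on X, and 13.6% on 3R (5.17 to 27.4), where 6 Dp peaks were concerned. Away from centromeres it ran from 6.80% on 3R to 12.2% on X. Chromosome 4 had 7 of 32 (21.9%, 9.28 to 40.0). These differences in share were not tested.

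**Figure D5:**
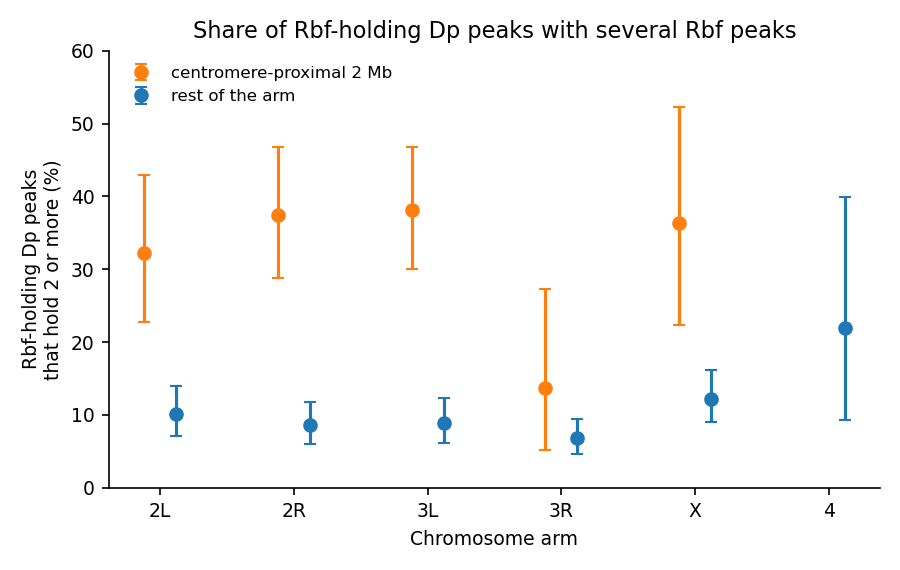
Share of Rbf-holding Dp peaks that held 2 or more Rbf peaks (%), with exact 95% intervals, in the centromere-proximal 2 Mb and the rest of each arm. Proximal shares are above the rest on 2L, 2R, 3L and X without overlap of intervals, and on 3R the intervals overlap.

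Proximal and other Dp peaks of the set had nearby values for form and more distant ones for score. Median widths were 3913 bp (3467 to 4489) and 3778.5 bp (2513 to 4586), shares under Rbf peaks 71.3% and 66.8%, and median gaps 106 bp (92 to 153) and 152 bp (109 to 201). The number with 3 or more Rbf peaks was 44 of 149 (29.5%) and 58 of 180 (32.2%). The median Dp score was 624.94 (476 to 718) in proximal Dp peaks and 1994.28 (1695 to 2088) in the others. The highest Rbf score of a Dp peak had medians of 143.52 (121 to 171) and 210.305. None of these differences was tested.

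Dp neighbours were at shorter range near centromeres, for Dp peaks with several Rbf peaks and for the others. The nearest other Dp peak was a median of 1086 bp away (579 to 1431) for the proximal ones and 7267 bp (4752 to 10983) for the rest. For Dp peaks with 1 Rbf peak these medians were 1280.5 bp (877 to 1658) and 5278 bp (4818 to 5757), and for those with none 523 bp (343 to 827) and 2134 bp (1834 to 2387). Within 200 bp of another Dp peak lay 69 of the 329 (21.0%, 16.7 to 25.8), against 8.32% of Dp peaks with 1 Rbf peak (7.16 to 9.61) and 26.1% of those with none (24.5 to 27.7). In the order of the Dp list, 99 (30.1%) were next to another of the set, in 40 runs of 2, 5 runs of 3 and 1 run of 4. The run of 4 was on X from 13940692 to 13955660, away from the centromere, and is named for its length after it was seen. Its Dp peaks were separated by 12 to 47 bp and held 5, 2, 4 and 3 Rbf peaks with Dp scores of 2581.6, 923, 2059.46 and 1190.02. Along the run the 14 Rbf peaks had a median width of 954 bp, the lowest being 271 and the highest 1166. Their successive midpoints were a median of 1116 bp apart, with a lowest distance of 564 and a highest of 1326. A near-continuous stretch of Dp was thus divided into 4 listed peaks, and the count of Rbf peaks per Dp peak depends on such divisions in both lists.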

How the data were processed

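Rbf and Dp ChIP-seq of fly flight muscles was deposited as 1 list of peaks per antibody. Besides the position, the authors deposited a score for every peak without naming its unit. Build BDGP5 and the tools MACS 1.4.2, Bowtie2 2 and bcl2fastq 1.8.3 come from the submitters' processing notes, without the role of each. Whether replicates were pooled and whether the input was the control is not stated, and read depth is unknown.

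Overlaps of at least 1 bp were found in Python 3.11.15 (numpy 2.4.6, pandas 2.3.3, scipy 1.17.1, matplotlib 3.10.9), and the number of Rbf peaks equalled that from bedtools 2.31.1 for all 5148 Dp peaks. Shares have exact Clopper-Pearson intervals, and medians exact order-statistic intervals, at 95%. Code was tested on simulated lists. The largest listed peak end stood for the length of an arm. No significance test was run, since membership rests on the same lists. The members, rules and settings were chosen with earlier results of these data known. Regions were named by a rule: every Dp peak with 5 or more Rbf peaks, the 3 at each extreme of width, gap and cover, the 3 of highest Dp score and the richest on each arm. Any other region was named after its values were seen.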

Additional observations from a re-analysis of the deposited data

How the results depend on the processing

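Of 59 alternative values for 6 results, 42 stayed within the interval of the reported value, or within 1.5 times it for the number of Dp peaks. The number, 329, became 163 with Rbf peaks at most 200 bp apart joined, 144 with scores of at least 100, 69 with scores above the list medians, 180 without the centromere-proximal 2 Mb, 172 with Dp peaks under 4 kb and 157 with those of at least 4 kb. The median gap became 587 bp after joining, which removes the short gaps by construction. The middle 33.3% of the Dp width held 25.1% of Rbf midpoints after joining, 26.3% with scores of at least 100, 25.7% above the medians and 26.9% in Dp peaks under 4 kb. The median share under Rbf peaks was 62.1%, 72.3%, 72.8% and 65.7% in the same order. The proximal share was 37.5% with scores of at least 100 and 36.2% above the medians. The cause of these shifts was not tested. Requiring 50% of the Rbf peak inside gave the same values for the 6 results. The share of pairs with the higher score nearer the centre stayed within its interval under all 10 settings. Those of Dp peaks of at least 4 kb and without chromosome 4 were added after the data were seen. No paired analysis was possible because each list holds 1 value per peak with no column for a replicate, and no replicate could be left out. Unknown depth limits what a missing Rbf peak means.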
